A study of Mus musculus with 6 samples.

Results

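The fatty acid elongases and desaturases are the enzymes that lengthen fatty acids and put double bonds into them. Their transcripts were followed in the liver of mice that lack the microRNA miR-137 and of wild-type mice, at postnatal day 14. The members were taken by gene symbol: the elongases Elovl1, Elovl2, Elovl3, Elovl5, Elovl6 and Elovl7, the front-end desaturases Fads1, Fads2 and Fads3, and the stearoyl-CoA desaturase Scd1. Earlier results of these data were known when the genes were chosen. These 10 genes of 18193 on the array were measured by 27 of its 45037 probe sets, a probe set being a group of short DNA probes that reports 1 transcript. Every probe set whose annotation named 1 of these genes and no other was kept, and no filter on low values was applied.

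Levels were deposited as log2 expression, so that a difference of 1 is a doubling. Mir137-/- mice carried a homozygous deletion, in every tissue, of the part of the Mir137 locus that encodes the microRNA. The deletion was made with Cre recombinase in embryonic stem cells of another strain, which were injected into C57BL/6 blastocysts. The resulting chimeras were crossed with C57BL/6 mice, and the Mir137-/- and Mir137+/+ mice came from matings of heterozygotes. Neither group was treated, the methods name male mice, and each of the 3 arrays per genotype held liver RNA of 1 mouse. Because the deletion was in the whole body, an effect that starts in the liver and one that starts in another organ cannot be told apart. Mir137 had no probe set under that name, so its loss was not read from these arrays. In whole-liver RNA, fewer cells of a type and less RNA per cell cannot be told apart either.

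The liver label held for the defining transcripts of hepatocytes, since the mean level of 8 such genes was 12.85 to 12.87 on Mir137-/- arrays and 12.89 to 12.92 on Mir137+/+ arrays. Some arrays stood apart from their group. Mir137+/+ replicates 2 and 3 read 10.91 and 10.81 for Xist, the female-specific transcript that silences an X chromosome, while 4 arrays read 3.66 to 4.24. Eif2s3y, a gene of the Y chromosome, read 2.06 and 2.51 on Mir137+/+ replicates 2 and 3 and 8.46 to 8.62 on the other arrays. By these transcripts Mir137+/+ replicates 2 and 3 were female, which goes against the male sex named for all mice. No Mir137-/- array was female, so sex and genotype are partly confounded for every gene below. A list of 12 skeletal muscle genes was raised on Mir137-/- replicate 1, where the actin Acta1 was at 11.38 against 4.68 to 5.84 elsewhere. Transcripts of the exocrine pancreas were raised on Mir137-/- replicate 2 and Mir137+/+ replicate 2. Arrays correlated across probe sets at 0.990 to 0.991 within Mir137-/-, at 0.993 to 0.994 within Mir137+/+ and at 0.982 to 0.988 between genotypes.

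Elongation takes place at the endoplasmic reticulum in a cycle of condensation, reduction, dehydration and a second reduction, which adds a pair of carbons in each round. An ELOVL enzyme catalyses the condensation and sets which chains are used, whereas the later steps are shared. ELOVL6 acts on the saturated product of fatty acid synthase and SCD1 puts the first double bond into such chains. FADS2, ELOVL5, FADS1 and ELOVL2 act in turn on dietary linoleic and alpha-linolenic acid and yield the long polyunsaturated fatty acids of membranes, and the liver is a main site of both branches. ELOVL1, ELOVL3 and ELOVL7 make long and very long saturated and monounsaturated chains. Genes of both branches are known targets of the transcription factor SREBP-1c.

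The mature microRNA that the deletion removes is shown with its seed, bases 2 to 8, in capitals. It lies on the plus strand at chr3:118433901-118433923 of mouse build GRCm38.p6 in RefSeq.
mmu-miR-137-3p: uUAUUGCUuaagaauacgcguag

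Fads3, Fads2 and Fads1 lie next to each other on chromosome 19, at chr19:10040855-10060113, chr19:10062765-10101503 and chr19:10182877-10196874 (GRCm38.p6), and Scd1 and Elovl3 lie farther along the same chromosome at chr19:44394450-44407709 and chr19:46131897-46135694. Elovl6 lies at chr3:129532386-129638495, on the same chromosome as Mir137. Mir137-/- mice can carry DNA of the embryonic stem cell strain around Mir137. A strain difference at Elovl6 and the loss of miR-137 therefore cannot be told apart, and the part of strain was not tested. The 250 bases before the annotated gene start are printed for Elovl6, whose transcripts rose, for Fads2, whose 3 probe sets all had separate groups, and for Elovl5, whose start region held the E box. Capitals mark matches on either strand to 4 motifs: a sterol regulatory element (TCACNCCAC), an NF-Y box (CCAAT), an Sp1 box (GGGCGG) and an E box (CACGTG). The regions are chr3:129532136-129532385 on the plus strand, chr19:10101504-10101753 on the minus strand and chr9:77917115-77917364 on the plus strand.
Elovl6: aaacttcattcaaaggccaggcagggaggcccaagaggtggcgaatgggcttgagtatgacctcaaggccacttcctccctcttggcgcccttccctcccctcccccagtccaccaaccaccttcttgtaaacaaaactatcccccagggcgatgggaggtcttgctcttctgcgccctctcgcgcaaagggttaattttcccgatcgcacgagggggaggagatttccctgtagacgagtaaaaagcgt
Fads2: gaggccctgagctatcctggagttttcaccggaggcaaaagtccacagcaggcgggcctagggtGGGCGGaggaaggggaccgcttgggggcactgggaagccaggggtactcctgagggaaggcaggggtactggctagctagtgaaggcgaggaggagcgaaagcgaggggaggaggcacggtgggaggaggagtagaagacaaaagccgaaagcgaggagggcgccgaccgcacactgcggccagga
Elovl5: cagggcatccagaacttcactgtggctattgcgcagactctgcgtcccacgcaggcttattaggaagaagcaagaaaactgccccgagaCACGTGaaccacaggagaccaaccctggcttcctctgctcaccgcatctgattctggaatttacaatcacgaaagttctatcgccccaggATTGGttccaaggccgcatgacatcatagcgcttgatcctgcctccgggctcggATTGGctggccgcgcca

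The Elovl6 region held none of these letters, the Fads2 region held 1 Sp1 box, 186 to 181 bases before the start, and the Elovl5 region held an E box and 2 NF-Y boxes. RefSeq start regions were at hand for 7 of the 10 genes, as 9 entries. Of these 9, none held the sterol regulatory element, which 1.05% of all 32851 such regions held. An NF-Y box was in 3 (33.8% of all regions), an Sp1 box in 6 (32.7%) and an E box in 1 (6.02%). A match in these letters is a description of the sequence, and binding was not measured.

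Between Mir137-/- and Mir137+/+ liver, 2 of the 27 probe sets rose, both of Elovl6, and 1 fell, that of Elovl3. Calls required an adjusted p under 0.05 (limma, Benjamini-Hochberg over all 45037 probe sets) and a change over 1.5-fold. Over the whole array, 1.94% of probe sets rose and 2.58% fell by the same rule. The other 24 member probe sets were not called, and 1 of them, of Fads2, passed the adjusted p at a smaller fold. At any fold, 3 member probe sets passed the adjusted p in the upward direction, as 3.37% of all probe sets did. The levels of the 3 Mir137-/- arrays all lay above those of the 3 Mir137+/+ arrays in 9 member probe sets, of Elovl2, Elovl5, Elovl6, Fads1 and Fads2, against 13.6% of all probe sets. They all lay below in 1, that of Elovl3, against 13.9%. Several of these probe sets read the same gene, so the counts are a description. By the brightest probe set of each gene, the Mir137-/- levels all lay above for 5 of 10 members and for 2711 of all 18193 genes. The median difference over the members was 0.06, and 0.01 over all probe sets.

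**Figure D1:**
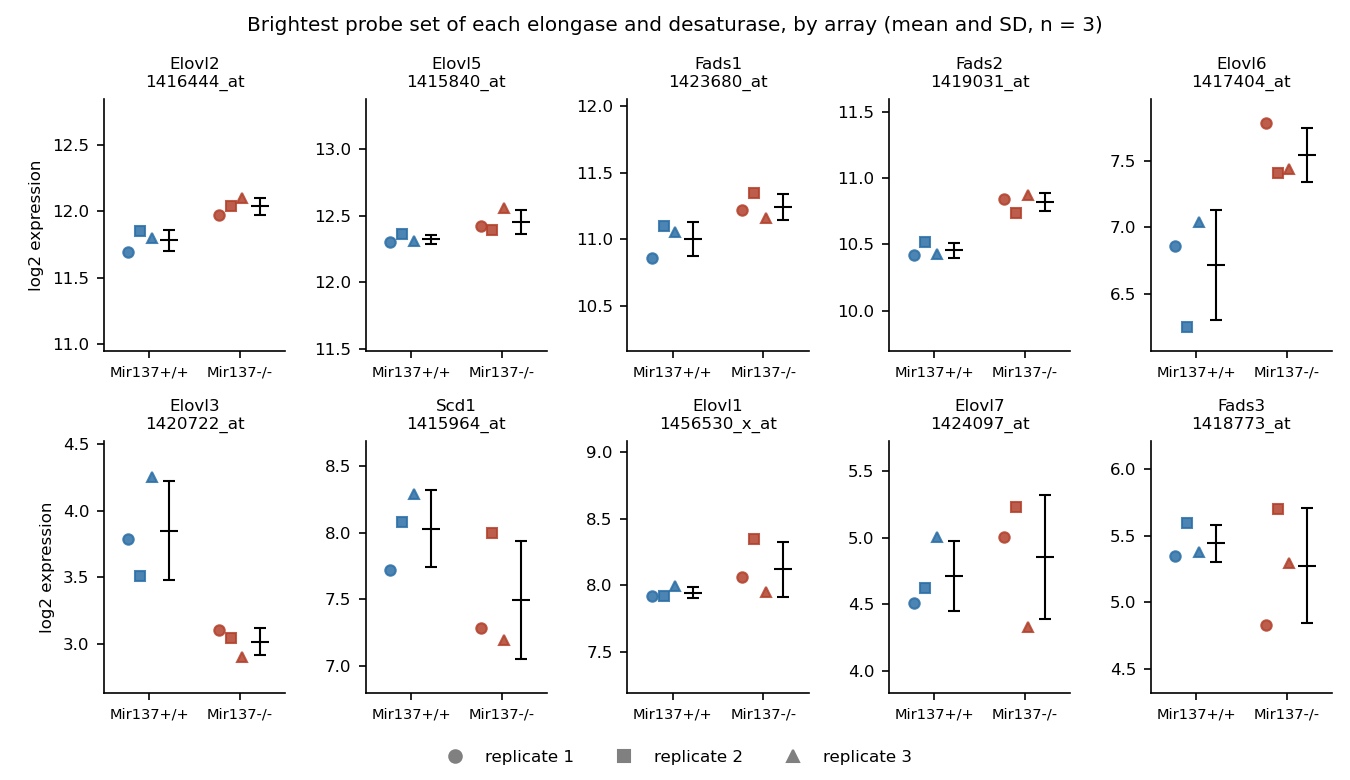
Log2 expression of each of the 10 genes by its brightest probe set (vertical axis), with 1 point per array and the mean ± SD of each genotype (n = 3). Elovl6 at 7.41 to 7.78 and Fads2 at 10.74 to 10.87 on Mir137-/- arrays lie above every Mir137+/+ array, Elovl3 lies below, and the points of Scd1 overlap.

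Elovl6 elongates C-16 saturated and monounsaturated chains to C-18 and was the member with the clearest gain. Its probe set 1417404_at read 7.78, 7.41 and 7.44 on Mir137-/- replicates 1 to 3 and 6.86, 6.25 and 7.04 on Mir137+/+ replicates 1 to 3. Every Mir137-/- array was above every Mir137+/+ array, and Mir137+/+ replicate 2 was the lowest. The difference was 0.83 ± 0.20 (SE; 95% interval 0.37 to 1.29), a 1.77-fold change, with an adjusted p of 0.0428.

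A second Elovl6 probe set, 1417403_at, read 6.46, 5.93 and 6.43 on Mir137-/- arrays and 5.14, 5.44 and 5.54 on Mir137+/+ arrays. The groups did not overlap, and the lowest Mir137-/- value was that of replicate 2. It rose by 0.90 ± 0.17 (SE), a 1.87-fold change, with an adjusted p of 0.0155. The other Elovl6 probe set, 1442656_at, was dim, at 3.92 to 4.57 in Mir137-/- and 3.83 to 4.10 in Mir137+/+, with overlapping groups and a difference of 0.20 (adjusted p = 0.577).

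Mir137-/- replicate 1, with the highest readings of both called Elovl6 probe sets, also had raised readings of some adipocyte transcripts. Adipoq, the adipocyte hormone adiponectin, was at 4.62 there and at 2.25 to 2.95 elsewhere. Ucp1, Cidea and Plin4 were also highest there, at 4.86, 5.28 and 6.05, and Lep and Retn by little, whereas Car3, Pck1 and Lipe were not. Of 9 adipocyte genes measured, 0 rose and 1, Car3, fell, and their mean level was 5.61 to 6.47 on Mir137-/- arrays and 5.84 to 6.07 on Mir137+/+ arrays. Car3 and Pck1 had Mir137+/+ means of 12.06 and 12.30, against 2.82 for Adipoq, so the mean level of the list also holds the fall of Car3. Mir137-/- replicate 3, with Adipoq at 2.25, read 6.43 for Elovl6 by 1417403_at and 7.44 by 1417404_at. Mir137-/- replicate 1 read 6.46 and 7.78. The part of adipocyte transcripts in the Elovl6 difference was not tested. Without Mir137-/- replicate 1 the differences of Elovl6 were 0.71 (1417404_at, adjusted p = 0.121) and 0.81 (1417403_at, adjusted p = 0.0508), so neither was called. The calls also rest on Mir137+/+ replicate 1, without which the adjusted p values were 0.0838 and 0.0556. The call of 1417404_at, not that of 1417403_at, was also lost without Mir137-/- replicate 2 or 3 or Mir137+/+ replicate 2, at adjusted p values of 0.0815, 0.0742 and 0.0771. With Xist status as a term in the model the differences were 0.68 and 1.13, with adjusted p values of 0.366 and 0.0612.

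Scd1, the delta-9 desaturase that works beside Elovl6 on the same saturated chains, was lower on average but not called. Its probe set 1415964_at read 7.28, 8.0 and 7.19 on Mir137-/- arrays and 7.72, 8.08 and 8.29 on Mir137+/+ arrays. The genotypes overlapped because Mir137-/- replicate 2 lay within the Mir137+/+ range. The difference was -0.54 ± 0.23 (SE; 95% interval -1.06 to -0.02), with an adjusted p of 0.203. The other Scd1 probe set, 1415965_at, differed by -0.44 (adjusted p = 0.159), also with overlapping groups. Without Mir137-/- replicate 2, 1415964_at differed by -0.80 with an adjusted p of 0.0456, and without the Mir137+/+ arrays with Xist it differed by -0.23 (adjusted p = 0.848).

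Fads2, the delta-6 desaturase that takes the first step from linoleic and alpha-linolenic acid, was higher on all Mir137-/- arrays by each of its 3 probe sets, and none of them reached the called size. Probe set 1449325_at read 10.66, 10.58 and 10.80 on Mir137-/- arrays and 10.28, 10.21 and 10.21 on Mir137+/+ arrays. The spread within each genotype was smaller than the gap between them. The difference was 0.45 ± 0.10 (SE), a 1.36-fold change, with an adjusted p of 0.0292. This p is past the threshold, but the change is under 1.5-fold, and the adjusted p was 0.0679 to 0.104 when any array other than Mir137-/- replicate 2 was left out. With Xist status as a term in the model, the difference of 1449325_at was 0.4.

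The brightest Fads2 probe set, 1419031_at, read 10.84, 10.74 and 10.87 on Mir137-/- arrays against 10.42, 10.52 and 10.43 on Mir137+/+ arrays. The difference was 0.36 ± 0.09 (SE), with an adjusted p of 0.0519. The third probe set, 1443838_x_at, whose suffix marks probes that can match other transcripts, ran from 8.29 to 8.81 in Mir137-/- and from 7.86 to 8.19 in Mir137+/+ (difference 0.43, adjusted p = 0.142).

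Fads1, the delta-5 desaturase downstream of Fads2 and Elovl5, read 11.22, 11.35 and 11.16 on Mir137-/- arrays and 10.86, 11.10 and 11.05 on Mir137+/+ arrays by 1423680_at. The groups did not overlap, but the difference of 0.24 ± 0.11 (SE) had an adjusted p of 0.229. Its dimmer probe set, 1440444_at, differed by 0.22 (adjusted p = 0.442) with overlapping groups.

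Elovl2, which elongates C-20 and C-22 polyunsaturated chains on the way to docosahexaenoic acid, read 11.97, 12.04 and 12.10 on Mir137-/- arrays and 11.69, 11.85 and 11.80 on Mir137+/+ arrays. Its difference was 0.26 ± 0.10 (SE), with an adjusted p of 0.153. Elovl5, which elongates C-18 polyunsaturated chains, had 2 probe sets with separate groups. They ran from 12.39 to 12.56 against 12.30 to 12.36 (1415840_at, difference 0.13, adjusted p = 0.464) and from 11.99 to 12.10 against 11.69 to 11.87 (1437211_x_at, difference 0.27, adjusted p = 0.14). The suffix of 1437211_x_at marks probes that can match other transcripts. It read 11.99, 12.06 and 12.10 on Mir137-/- arrays and 11.69, 11.87 and 11.79 on Mir137+/+ arrays, close to Elovl2 on every array. Whether it reads Elovl2 was not tested, so it may not be a separate reading of Elovl5. Across Fads2, Elovl5, Fads1 and Elovl2, 7 of 8 probe sets had separate groups with higher Mir137-/- levels, where 13.6% of all probe sets did, and 0 of 8 were called. The 7 include 1437211_x_at, which may repeat the reading of Elovl2. These genes were grouped by their place in the pathway after their values were known, so the count is a description and nothing is read from it against that share.

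Fads3, the neighbour of Fads2 with a desaturase domain, had no probe set that differed by more than 0.17. Its 3 probe sets ran from 2.95 to 5.70 and their differences from -0.17 to 0.03.

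**Figure D2:**
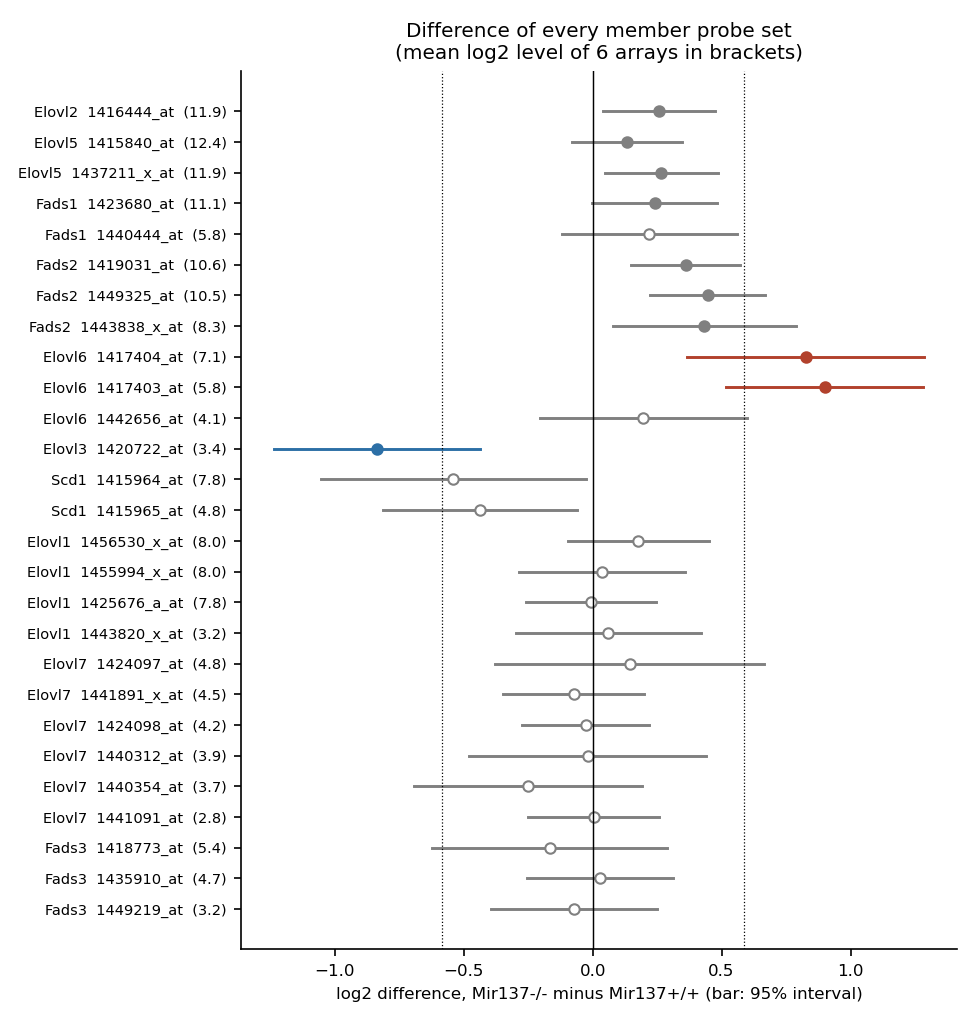
Difference in log2 expression, Mir137-/- minus Mir137+/+ (horizontal axis), of all 27 member probe sets, with 95% intervals from the limma fit over 3 arrays per genotype. The called probe sets are Elovl6 at 0.83 and 0.90 and Elovl3 at -0.84, and the Fads1, Fads2, Elovl2 and Elovl5 points lie between 0.13 and 0.45.

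Elovl3, an elongase of saturated and monounsaturated very long chains that is known as a male-biased and circadian gene of mouse liver, was the only member that fell. Its single probe set, 1420722_at, read 3.10, 3.04 and 2.90 on Mir137-/- arrays and 3.79, 3.51 and 4.25 on Mir137+/+ arrays. No value of one group reached the other, and the Mir137+/+ arrays were spread over a range wider than that of Mir137-/-. It fell by 0.84 ± 0.18 (SE; 95% interval of the difference -1.24 to -0.44), with an adjusted p of 0.025.

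The Mir137-/- readings of Elovl3 lay below the lower quartile of all probe sets on their arrays (3.43 to 3.47), where no detection call was used to set a floor. The Mir137+/+ array without Xist, replicate 1, read 3.79, between the 2 arrays with Xist at 3.51 and 4.25. Without Mir137-/- replicate 1, 2 or 3 or Mir137+/+ replicate 1 the adjusted p was 0.0551, 0.0679, 0.0674 and 0.0672, so the call was lost, while the difference was -0.88, -0.85, -0.78 and -0.87. With Xist status as a term it was -0.78, with an adjusted p of 0.242.

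Elovl1, which makes saturated and monounsaturated chains of C-20 to C-24, differed by -0.01 to 0.18 over 4 probe sets (adjusted p from 0.443 to 0.981), 3 of which read 7.63 to 8.35 and the other 2.86 to 3.45. Elovl7, an elongase of C-16 to C-20 chains, was read by 6 probe sets at 2.67 to 5.23, with differences from -0.25 to 0.14. None of these 10 probe sets had separate groups.

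**Figure D3:**
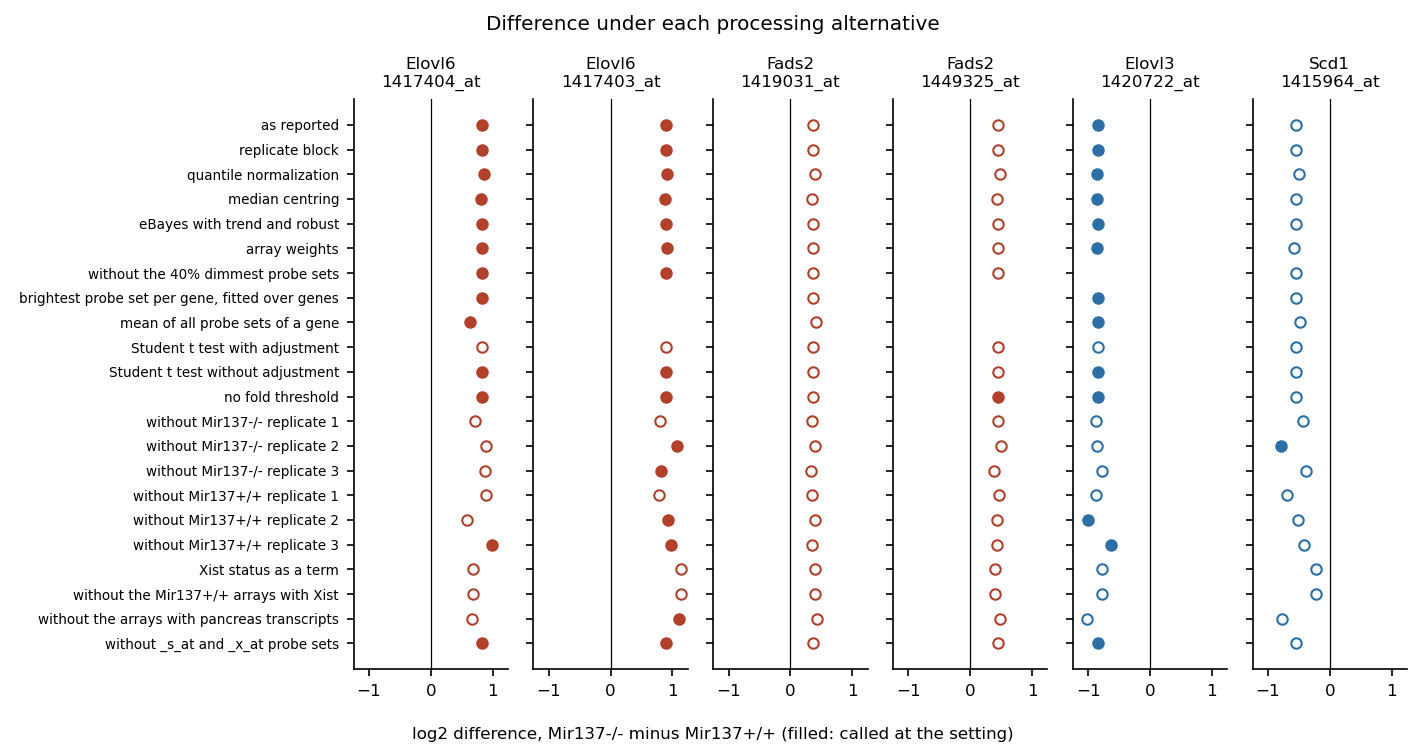
Difference in log2 expression (horizontal axis) of 6 member probe sets of Elovl6, Fads2, Elovl3 and Scd1 under each processing alternative (vertical axis), filled where the probe set was called under that alternative. The differences of the 2 called Elovl6 probe sets stay between 0.59 and 1.13 and that of Elovl3 between -1.02 and -0.64, with calls in some alternatives and not in others.

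The neighbouring steps of the pathway were read from 9 lists with 84 of 90 genes measured, each by its brightest probe set. Of these 84 genes, 4 rose and 2 fell, where 2.29% of all genes rose and 3.27% fell, and their median difference was -0.01. The genes that rose were Acsl3, Lpcat4, Ehhadh and Pparg, and those that fell were Fasn and Thrsp.

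Among 7 partners of the elongation cycle, 0 were called and the median difference was 0.02. The smallest p values were those of the dehydratases Hacd1, which differed by -0.20 (adjusted p = 0.335), and Hacd3, which differed by 0.18 (adjusted p = 0.335). Among 6 other elongases and desaturases 0 were called, with 0.31 for Degs1, the dihydroceramide desaturase (adjusted p = 0.0902), and 0.21 for Fads6 (adjusted p = 0.244). Among 6 genes of electron supply to the desaturases, which take electrons through cytochrome b5, 0 were called, with 0.23 for Cyb5r3 (adjusted p = 0.161) and -0.22 for Cyb5r4 (adjusted p = 0.223).

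Of 11 acyl-CoA synthetases, which activate fatty acids, 1 rose. Acsl3 rose by 0.81 ± 0.20 (SE), with an adjusted p of 0.0428, and its difference was 0.54 to 1.03 over the alternatives. Acsl5 differed by 0.44 (adjusted p = 0.0216) and Slc27a5, a bile acid and very long chain synthetase, by -0.32 (adjusted p = 0.0786). Of 14 acyltransferase genes that place acyl chains on phospholipids or their precursors, 1 rose. It was the lysophospholipid acyltransferase Lpcat4, by 0.73 ± 0.18 (SE; adjusted p = 0.0456). Agpat3 differed by 0.45 (adjusted p = 0.0226) and Lpgat1 by 0.48 (adjusted p = 0.0298), both under 1.5-fold. The calls of Acsl3 and Lpcat4 were lost when any array other than Mir137-/- replicate 3 was left out, and the difference of Lpcat4 was 0.49 to 0.89 over the alternatives.

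Of 10 peroxisomal genes that shorten very long chains, 1 rose. This was Ehhadh, the bifunctional enzyme of peroxisomal beta-oxidation, by 0.60 ± 0.11 (SE; adjusted p = 0.0144), a call that was lost without Mir137-/- replicate 2 or 3 or Mir137+/+ replicate 3, with differences of 0.54 to 0.67 over the alternatives. Abcd2, a peroxisomal importer of very long acyl-CoA, differed by 0.54 (adjusted p = 0.0653) and Amacr by 0.28 (adjusted p = 0.107). Of 5 ceramide synthases 0 were called. Cers2, which takes very long acyl chains, differed by -0.40 (adjusted p = 0.0393, under 1.5-fold) and Cers5 by 0.24 (adjusted p = 0.315).

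The supply of saturated chains moved opposite to Elovl6 in the 2 genes that fell out of 9. Fasn, the fatty acid synthase whose product ELOVL6 elongates, fell by 1.22 ± 0.12 (SE), with an adjusted p of 0.000884. Thrsp, a thyroid hormone-responsive regulator of lipogenesis, had a mean of 3.42 in Mir137-/- and 10.66 in Mir137+/+ liver, and fell by 7.24 (adjusted p = 4.05e-05). Its Mir137-/- readings of 4.22, 3.23 and 2.80 include 2 below the lower quartile of their arrays, so the size of this difference depends on how such low levels were summarized, and with the mean of all its probe sets it was -4.36. Acly differed by -0.58 (adjusted p = 0.0206), under 1.5-fold. Of the 9 genes 7 were lower and 2 higher, Me1 by 0.44 (adjusted p = 0.0854) and Slc25a1 by 0.13 (adjusted p = 0.441). The median difference of the 9 genes was -0.32.

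Of 16 regulators, 1 rose and 14 of the other 15 differences were below 0, with a median of -0.19. Pparg, a nuclear receptor of lipid storage, rose by 1.36 ± 0.14 (SE; adjusted p = 0.00126). Mlxipl, which encodes the glucose-responsive factor ChREBP, differed by -0.38 (adjusted p = 0.0953) and Hnf4a by -0.34 (adjusted p = 0.113). Srebf1, the gene of SREBP-1c and added here by name as the best known regulator of these enzymes, differed by -0.32 (adjusted p = 0.156). Transcripts of blood precursors, which the liver still holds at this age, moved with the genotype in part. Of 7 such genes 4 fell (Myb, Ngp, Vpreb1 and Cd79a), where 3.27% of all genes did. Elane, Ptprc and Alas2 were not called, with differences of -0.70, -0.24 and 0.04. These transcripts had a mean level of 5.69 to 5.99 on Mir137-/- and 6.86 to 7.18 on Mir137+/+ arrays. Their part in the differences of the members and of these lists was not tested.

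**Figure D4:**
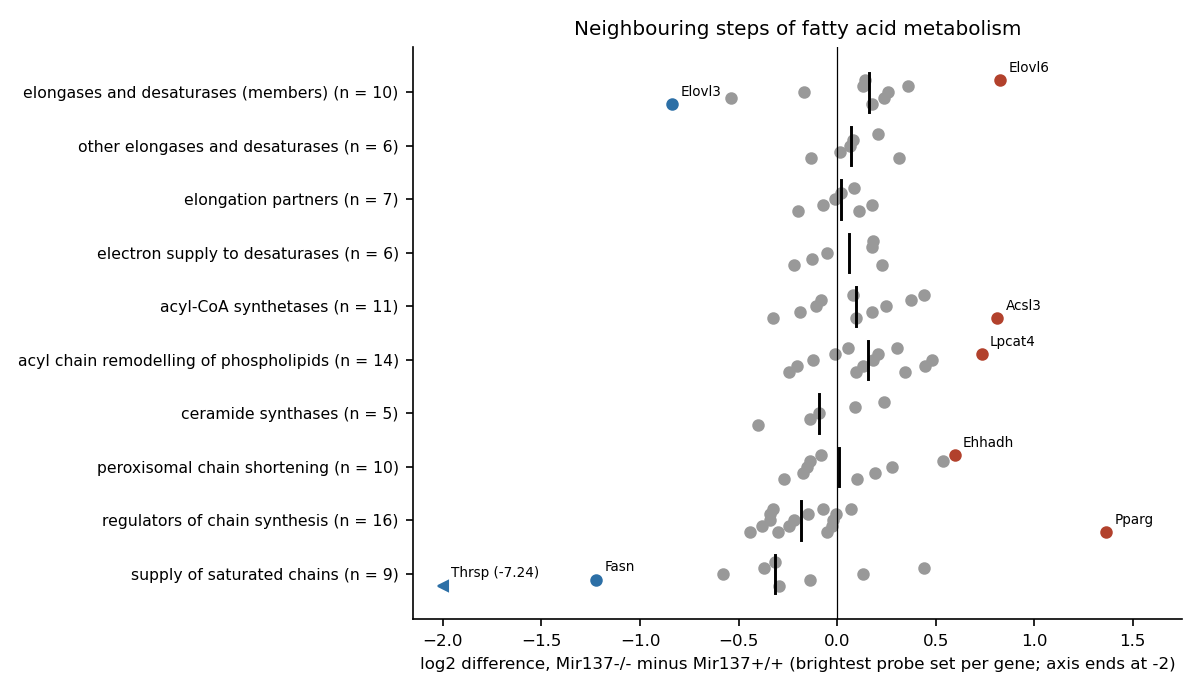
Difference in log2 expression, Mir137-/- minus Mir137+/+ (horizontal axis, which ends at -2), of 84 genes in 9 lists of neighbouring steps, each by its brightest probe set. Pparg at 1.36 and Fasn at -1.22 stand out from their lists, and Thrsp, at -7.24, lies beyond the end of the axis.

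The genes whose levels ran most like those of the called members were found by Pearson correlation over the 6 arrays, among the brightest probe sets with a mean above the median of all probe sets. For Elovl6 (1417404_at) they were Evpl (0.994), Pgm1 (0.988) and Tmem37 (0.986) of 11503 genes. For Elovl3 they were Knop1 (0.998), Zfp691 (0.996) and Sinhcaf (0.994) of 11504 genes. These are the highest of many values, each over only 6 arrays, so correlations of this size can come from the search alone. No shared control is read from them. All 6 arrays enter each value, so the genotype difference is part of it. None of these 6 genes was called, with differences of 0.18 to 0.30 for the first trio and -0.27 to -0.19 for the second.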

How the data were processed

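Whole-genome Affymetrix mouse arrays were hybridised with liver RNA from postnatal day 14, 3 arrays for Mir137-/- and 3 for Mir137+/+. The deposited table holds log2 levels that the authors summarized, from 1.22 to 13.79. The methods name RMA with a baseline-to-mean step and the labels name GCRMA without a version, and the sources also differ on the amount of RNA labelled. The levels were not centred per probe set and were used without further normalization. Background correction of this kind decides how far low levels, such as those of Elovl3, spread.

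After 64 control probe sets were left out, 45037 were fitted with limma (version 3.58.1, R version 4.3.3): lmFit on genotype, eBayes, no covariate, Benjamini-Hochberg adjustment over all of them. P-values are two-sided. Calls need an adjusted p under 0.05 and a change over 1.5-fold. An exact test of 3 arrays against 3 cannot go below 0.1, so none is given per gene, and the number of arrays limits the precision. Symbols came from the platform annotation: 34945 probe sets had 1 symbol, 932 several and 9160 none. Genes outside the members are read by their brightest probe set (highest mean of the 6 arrays), in the same fit.

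The members and the lists were chosen with earlier results of these data known. All members are named. From each list of neighbouring steps the called genes are named, and at least 2 by smallest p. The fit was tested on simulated data. Alternatives were the replicate block, quantile normalization, median centring, eBayes with trend and robust, array weights (statmod, version 1.5.0), leaving out the 40% dimmest probe sets or those ending in _s_at or _x_at, the brightest probe set or the mean per gene, the methods' t-test, adjusted or not, no fold threshold, each array left out in turn, Xist as a term, and leaving out the arrays with Xist or with pancreas transcripts. With Xist as a term or those arrays left out, Mir137-/- is set against Mir137+/+ replicate 1 alone, which is assumed to vary like the others.

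Other marker lists were read the same way: of 6 sebaceous and epidermal genes, 8 Kupffer cell genes, 12 skeletal muscle genes and 10 exocrine pancreas genes 0 were called, and of 10 endothelial, stellate and biliary genes 1 fell, Lrat. Promoters and the microRNA came from RefSeq tables (GRCm38.p6).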

Additional observations from a re-analysis of the deposited data

How the results depend on the processing

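The differences of Elovl2, Elovl5, Fads1, Fads2, Scd1 and Elovl3 and of both called Elovl6 probe sets kept their direction under every alternative, whereas several calls were lost. Of the 2 member probe sets that rose, 1 was called without the arrays with pancreas transcripts and 0 with the adjusted t-test of the methods, with Xist as a term and without the arrays with Xist. Leaving out each array in turn gave 0 to 2. Both belong to Elovl6, so a fit per gene can count only 1, and Elovl6 was that 1 with its brightest probe set and with the mean of its probe sets. The 1 that fell, Elovl3, became 0 under the adjusted t-test, with Xist as a term, without the arrays with Xist or with pancreas transcripts, and without the 40% dimmest probe sets, which drops it from the test. Leaving out each array gave 0 to 1, and the 1 without Mir137-/- replicate 2 was Scd1. Over the neighbouring lists, the 4 that rose became 2 with the replicate block, 0 with the adjusted t-test or without the arrays with Xist, 1 with Xist as a term or without the arrays with pancreas transcripts, 7 with no fold threshold and 1 to 3 with each array left out. The 2 that fell became 4 with no fold threshold and 2 to 3 with each array left out. The cause was not tested. Same-numbered arrays of the 2 genotypes correlated in their deviations at 0.081, 0.211 and 0.0044, so the numbers were not taken to pair the mice, and with the replicate block 2 member probe sets rose and 1 fell, as without it. Low signal limits 12 of the 27 probe sets, whose means lay below the median probe set, among them that of Elovl3, all 6 of Elovl7 and 2 of the 3 of Fads3.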
